A study of Mus musculus with 15 samples.

Results

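The antioxidant and metallothionein genes described here were 10 genes, Hmox1, Nqo1, Gclc, Gclm, Txnrd1, Srxn1, Slc7a11, Mt1, Mt2 and Gpx3, of 22180 genes that the arrays measured with a probe set carrying a single gene symbol. They were chosen by name, and a gene with several such probe sets was represented by the one with the highest mean over all 15 arrays, which mattered only for Slc7a11. RNA of whole mouse eyeballs was hybridised to Affymetrix Mouse Gene 2.1 ST arrays in order to find transcripts that change in the eye in Huntington's disease, which is caused by an expanded CAG repeat in the huntingtin gene. R6/1 mice at 6 months of age (3 arrays) were compared with wild type (WT) mice of that age (4 arrays), and R6/2 mice at 9 weeks of age (4 arrays) with WT mice of 9 weeks (4 arrays). Both HD lines carry a transgene for a mutant exon 1 fragment of human HTT, and the endogenous mouse Htt gene was left as it was. The repeat length was 131 ± 3.1 CAG in R6/1 mice and 162 ± 2.8 CAG in R6/2 mice (SD). All mice were of the C57BL/6J strain, and no mouse received any agent. The study pooled RNA into the 15 samples, so that p-values measure the spread between these pools and not between single animals. Age and cohort cannot be told apart in any comparison between the 6-month and the 9-week arrays, and the HD lines differ in age, transgene insertion and repeat length at once.

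Cells meet oxidants and electrophiles with a set of enzymes whose genes share an inducer, the transcription factor NRF2 (Nfe2l2). KEAP1 holds NRF2 for degradation until its cysteines are modified, after which NRF2 pairs with a small MAF protein and binds antioxidant response elements, a place that BACH1 occupies in its absence. The targets build glutathione (Slc7a11, Gclc, Gclm), recycle thioredoxin and peroxiredoxin (Txnrd1, Srxn1), reduce quinones (Nqo1) and break down haem (Hmox1). Metallothioneins (Mt1, Mt2) are small cysteine-rich proteins that bind zinc and copper, and they are induced by metals through MTF1 at metal response elements and by glucocorticoids. Gpx3 encodes the secreted, selenium-containing glutathione peroxidase of plasma. The retina and the lens are exposed to light and, in photoreceptors, to a high oxygen turnover, and the lens depends on glutathione for its clarity.

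The values are log2 levels from robust multi-array averaging (RMA), in which 1 unit is a doubling, and they were similar in distribution between arrays, with medians of 2.78 to 2.95. The array spread was narrow in WT 6 months replicate 3 and R6/1 replicate 3, with interquartile ranges of 2.17 and 2.26, and it was 2.43 to 2.61 in all other arrays. Rod markers were high in every array (6 of 8 listed genes measured, mean 8.38 to 9.19), as the eyeball label requires. The array labelled WT 6 months replicate 4 went against its label: Opn1sw, the short-wave cone opsin, was 3.48 there, against 2.51 to 3.01 in R6/1 arrays and 7.46 to 7.84 in the other WT arrays at 6 months, and the fast myosin Myh4 was 5.95 there. The study's methods also count 3 WT and 4 R6/1 samples at that age, so the R6/1 differences of the 10 genes are given below as labelled, without this array and with it counted as R6/1. The calls and medians of the gene lists are given in the same ways, while levels by group are as labelled. WT 9 weeks replicates 2 and 4 stood apart by genes of the lacrimal and Harderian glands, which lie beside the globe. Elovl3, a fatty acid elongase of such glands, was 9.11 and 9.51 in them, against 6.04 and 1.64 in the other WT arrays at 9 weeks. In R6/2 arrays it was 7.14 in replicate 4 and 1.86 to 3.04 in the others. Leaving out WT replicates 2 and 4 therefore does not remove every array with raised Elovl3. In RNA from whole tissue, fewer cells of a type and less RNA per cell cannot be told apart.

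Neither HD line showed a called change in any of the 10 genes. Calls required an unadjusted p under 0.05 together with a Benjamini-Hochberg adjusted p under 0.20 in a limma fit over 15 arrays, run on the more variable 50% of all genes. This selection held 7 of the 10, while Gclc, Srxn1 and Mt2 varied too little to enter it and were read from the fit over all 22180 genes. In R6/1 against WT at 6 months, 0 of the 7 were called, with 0.018% of all tested genes called lower and 0.0361% called higher; 1 of the 7 had an unadjusted p under 0.05, against 345 of 11090 tested genes. In R6/2 against WT at 9 weeks, 0 of the 7 were called, with 0.0992% of all tested genes called lower and 0.0721% called higher; 2 of the 7 had an unadjusted p under 0.05, against 1114 of 11090. In the fit over all genes, none of Gclc, Srxn1 and Mt2 was called in either line, where 0% of genes were called lower and 0.00902% higher in R6/1, and 0.0451% lower and 0.0316% higher in R6/2. The median log2 fold change of the 10 genes was -0.14 in R6/1 and -0.14 in R6/2, beside 0.01 and 0.02 over all genes. Fold changes were below 0 in 7 of the 10 genes in R6/1 and in 8 of the 10 in R6/2, a share that was 47.8% and 45.3% over all genes. The R6/2 count rested on WT 9 weeks replicates 2 and 4, since without them 5 of the 10 were below 0 (median -0.0149). In R6/1, 6 of the 10 were below 0 without the array labelled WT 6 months replicate 4 (median -0.15) and 7 with it counted as R6/1 (median -0.0723), and none of the 10 was called in either. Of all tested genes, 0.361% were then called lower and 0.0992% higher without it, and 0.388% and 0.0902% with it counted as R6/1. The plot of levels by array shows that the spread within a group was as wide as the distance between groups for most of the set.

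**Figure D1:**
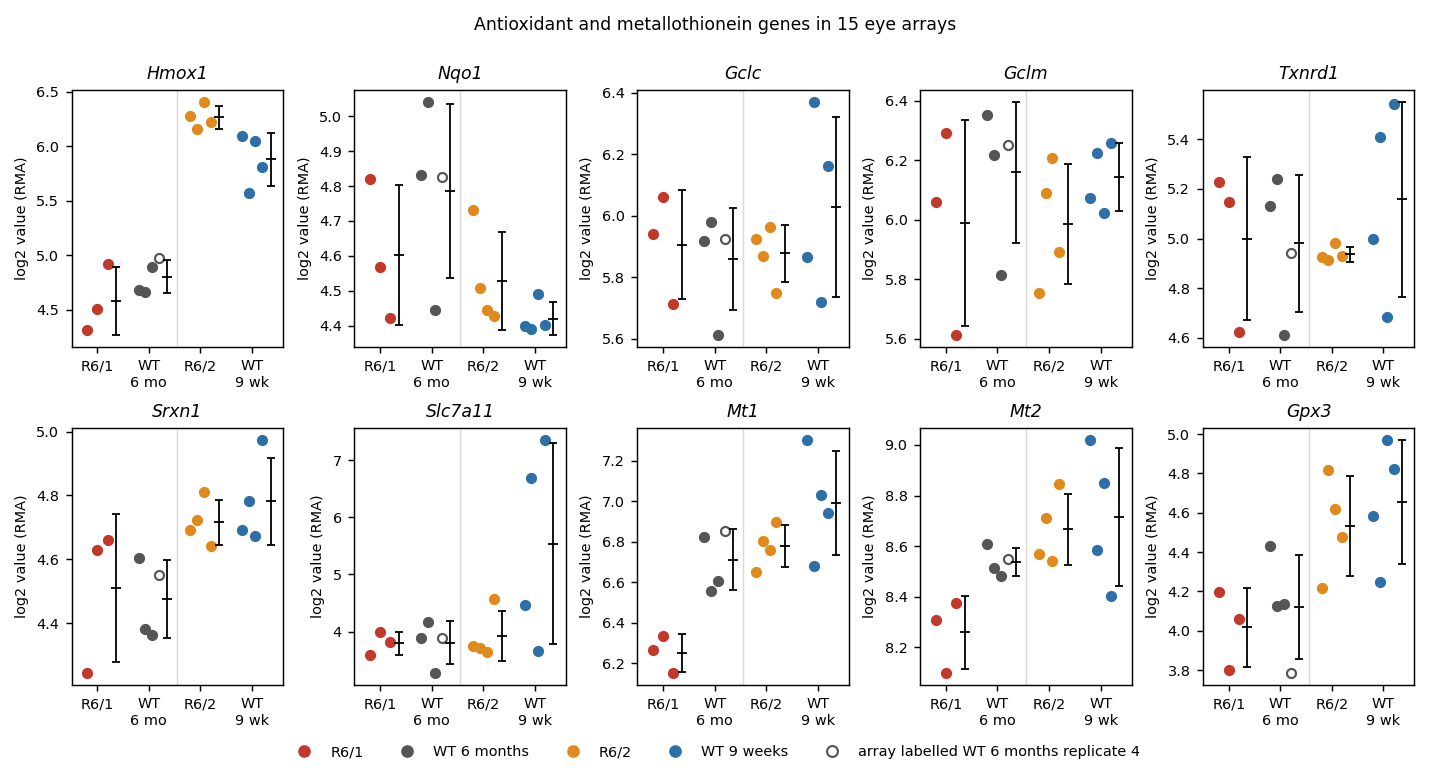
Levels (log2, RMA) of the 10 genes in each of the 15 arrays, with R6/1 left of WT 6 months and R6/2 left of WT 9 weeks. Points are arrays, the bars beside them give the mean and SD of the group, and the open point is the array labelled WT 6 months replicate 4. Mt1 and Mt2 in R6/1 and Hmox1 in R6/2 are the genes whose HD arrays lie wholly to one side of WT arrays of the same age.

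The metallothioneins gave the clearest separation in R6/1 eyes. Mt1 and Mt2 are neighbours on chromosome 8 (annotated starts 6471 bases apart in GRCm38.p6), and the windows around their starts are shown because both genes moved alike across arrays and because metallothioneins are known for metal response elements. The search was for TGCACNC or TGCGCNC on either strand in the 300 bases from 250 before to 50 after each RefSeq start (build GRCm38.p6). Of 32851 such windows in the mouse table, 25.7% held at least 1 match, 1.97% at least 3 and 0.517% at least 4. The Mt2 window held 4 matches and the Mt1 window 3, and outside the metallothioneins the Gclm window also held 3 and the Srxn1 window 1. Capitals in the following lines mark the matches, both genes lie on the plus strand, and the third line is the first 30 bases of the Mt1 transcript. The fourth Mt2 match begins 5 bases into the transcript and is not shown.
Mt2, chr8:94172368-94172617: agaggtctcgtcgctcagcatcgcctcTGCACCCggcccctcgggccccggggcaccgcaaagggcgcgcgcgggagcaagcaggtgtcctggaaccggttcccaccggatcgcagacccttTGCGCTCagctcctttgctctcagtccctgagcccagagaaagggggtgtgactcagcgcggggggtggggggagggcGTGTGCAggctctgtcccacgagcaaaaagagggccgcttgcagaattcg
Mt1, chr8:94178839-94179088: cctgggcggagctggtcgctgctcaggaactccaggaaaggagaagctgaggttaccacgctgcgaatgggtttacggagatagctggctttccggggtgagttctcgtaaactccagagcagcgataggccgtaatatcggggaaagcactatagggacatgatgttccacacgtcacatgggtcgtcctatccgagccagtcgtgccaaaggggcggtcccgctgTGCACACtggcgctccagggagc
Mt1, chr8:94179089-94179118: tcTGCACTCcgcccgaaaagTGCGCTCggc
A match of letters is a description of the sequence, and binding was not measured.

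Mt1 was 6.26, 6.33 and 6.15 in R6/1 arrays, against 6.82, 6.56, 6.61 and 6.85 in WT arrays at 6 months. All 3 R6/1 arrays were below all 4 WT arrays. The difference was -0.46 on the log2 scale (SE 0.15, 95% interval -0.78 to -0.14, 0.727-fold), with an adjusted p = 0.981 by limma, so that it was not called. Mt2 was 8.31, 8.10 and 8.38 in R6/1 arrays, against 8.61, 8.51, 8.48 and 8.55 in WT arrays. Its groups did not overlap either. The difference was -0.28 (SE 0.14, 95% interval -0.57 to 0.01), with an adjusted p = 1 by limma over all genes. These were 2 of the 10 genes, whereas 1.68% of all genes had every R6/1 array below every WT array and 1.46% had every one above. Without the array labelled WT replicate 4 the differences were -0.41 for Mt1 (adjusted p = 1, limma) and -0.27 for Mt2, again without overlap (3.13% of all genes lower and 2.84% higher). With that array counted as R6/1, at 6.85 for Mt1 and 8.55 for Mt2, the groups overlapped for both genes and the differences were -0.26 and -0.20 (2.02% of all genes without overlap lower and 1.71% higher). The separation of the metallothioneins in R6/1 eyes thus depended on how this array was counted.

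In R6/2 eyes the metallothioneins overlapped with WT. Mt1 was 6.65, 6.80, 6.76 and 6.90 in R6/2 arrays, against 7.30, 6.68, 7.03 and 6.94 in WT arrays at 9 weeks. The difference was -0.21 (SE 0.14, 95% interval -0.51 to 0.09; adjusted p = 0.668 by limma). Mt2 was 8.57, 8.71, 8.54 and 8.84 in R6/2 arrays, against 9.02, 8.58, 8.85 and 8.40 in WT arrays, a difference of -0.05 (SE 0.13, 95% interval -0.32 to 0.22). In both genes WT replicates 1 and 3 were above the middle of the R6/2 arrays, and the WT arrays were wider apart than the R6/2 arrays. Without WT replicates 2 and 4, which carry the gland genes, all R6/2 arrays were below WT for both genes, with differences of -0.39 for Mt1 (adjusted p = 1, limma) and -0.27 for Mt2 (adjusted p = 1, limma over all genes). With only 2 WT arrays left, 7.83% of all genes had every R6/2 array below WT and 9.07% had every one above, and for Mt2 the highest R6/2 array (8.84) and the lower WT array (8.85) nearly met. The line difference, which is the change in R6/1 less that in R6/2, was -0.25 for Mt1 (SE 0.21, adjusted p = 1, limma), so that the lines were not shown to differ.

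Mt1 and Mt2 varied together. Pearson's r was 0.82 over the 15 arrays, 0.75 over the 7 arrays at 6 months, 0.70 over the 8 arrays at 9 weeks and 0.58 for the deviations from the group means. The genes whose pattern was most like that of Mt1 over the 15 arrays, of all 22179 others, were Ciart (r = 0.90), Tbc1d24 (r = 0.85) and Icmt (r = 0.85). Ciart encodes a repressor in the circadian clock; it was 3.72, 3.80 and 3.55 in R6/1 arrays, against 4.38, 4.0, 3.89 and 4.01 in WT arrays at 6 months. Within ages its r with Mt1 was 0.88 and 0.77 (7 arrays at 6 months, 8 at 9 weeks). The times of day at which mice were killed are not given in the sources used here. For Mt2 the most alike genes were Rnpc3 (r = 0.89), Acap3 (r = 0.88) and Hyls1 (r = 0.88). These genes were picked as the highest of all, so the values describe the arrays and carry no p.

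The macrophage and microglia list (8 of 8 genes measured, 0 called in any comparison) moved against both metallothioneins. Its mean was 3.72 to 3.95 in R6/1 arrays and 3.58 to 3.73 in WT arrays at 6 months, and 3.59 to 3.72 in R6/2 arrays and 3.33 to 3.56 in WT arrays at 9 weeks. Its r with Mt1 was -0.64 at 6 months and -0.86 at 9 weeks, and with Mt2 -0.90 and -0.66. For the deviations from the group means it was -0.45 with Mt1 and -0.78 with Mt2. Photoreceptor lists moved with the metallothioneins within ages, but hardly with Mt1 within groups. For the deviations from the group means, r with Mt1 was 0.12 for the rod list and -0.10 for the cone list. With Mt2 these values were 0.59 and 0.32. The r of the rod list was 0.58 and 0.56 with Mt1 and 0.64 and 0.82 with Mt2, and that of the cone list was 0.56 and 0.64 with Mt1 and 0.70 and 0.36 with Mt2 (6 months and 9 weeks). The rod mean was 8.38 to 8.70 in R6/1 arrays and 8.73 to 9.19 in WT arrays at 6 months, and the cone mean (9 genes measured) was 3.35 to 3.50 in R6/1 arrays and 3.64 to 5.30 in WT arrays, so that neither overlapped. At 9 weeks the rod mean was 8.51 to 8.78 in R6/2 arrays and 8.38 to 9.06 in WT arrays, and the cone mean was 3.43 to 3.71 in R6/2 arrays and 4.56 to 5.18 in WT arrays. The lens fibre list had an r with Mt1 of 0.75 and 0.0189, and with Mt2 of 0.41 and 0.49. The retinal pigment epithelium list had an r with Mt1 of 0.63 and 0.33, and with Mt2 of 0.52 and 0.76. For the lacrimal and Harderian gland list these values were 0.72 and 0.00657 with Mt1, and 0.24 and -0.42 with Mt2. The part of these cell types in the metallothionein values was not tested. Of the further genes of zinc handling, Mt3, the brain metallothionein, was 4.44, 4.48 and 4.28 in R6/1 arrays, against 4.69, 4.97, 4.05 and 4.65 in WT arrays, and these overlapped. Mtf1, the metal-sensing factor, was 4.52 to 4.69 in R6/1 arrays and 4.45 to 4.76 in WT arrays. Mt4, the form of stratified epithelia, was 1.95 to 2.20 in R6/1 arrays and 1.72 to 3.13 in WT arrays.

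**Figure D2:**
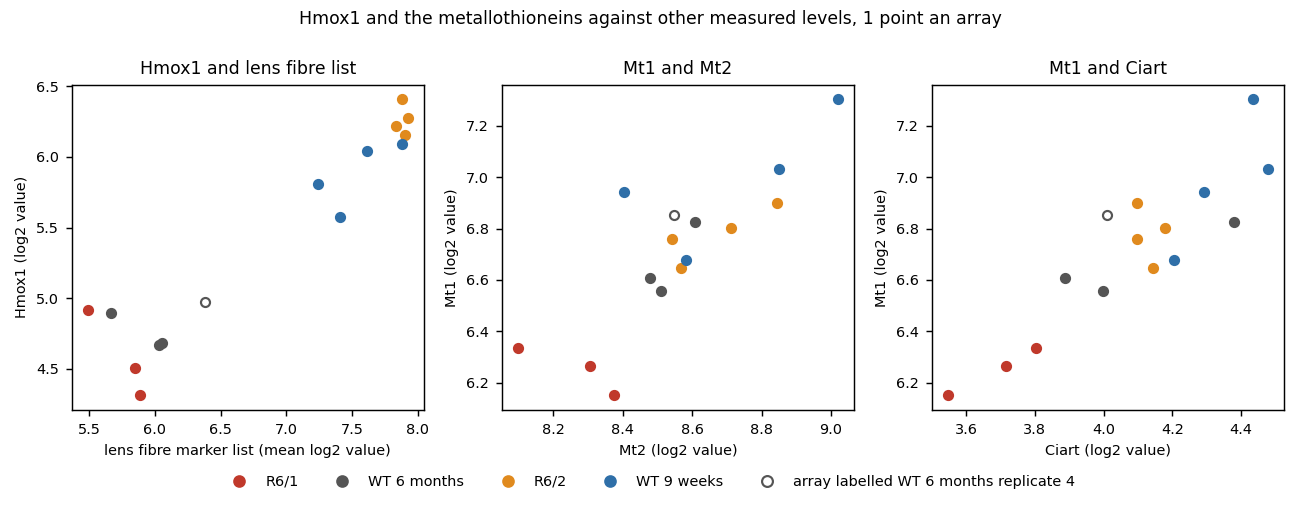
Hmox1 against the mean of the lens fibre list, Mt1 against Mt2 and Mt1 against Ciart, all as log2 values with 1 point an array. The 6-month arrays form a group of their own at lens values of 5.49 to 6.38 and Hmox1 values of 4.31 to 4.97, and the 3 R6/1 arrays lie at the low end of Mt1, Mt2 and Ciart.

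Hmox1, the inducible haem oxygenase, differed most by age. It was 4.68, 4.67, 4.89 and 4.97 in WT arrays at 6 months, against 6.09, 5.57, 6.04 and 5.81 in WT arrays at 9 weeks. The lowest WT array at 9 weeks was above the highest at 6 months. The difference was -1.07 (SE 0.16, 95% interval -1.41 to -0.74, 0.475-fold), called lower with an adjusted p = 0.00204 by limma, and it stayed called without the array labelled WT replicate 4 (-1.13) and without WT 9 weeks replicates 2 and 4 (-1.26). Age calls were common: 11.5% of the tested genes were called lower at 6 months and 7.74% higher.

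In R6/2 eyes Hmox1 was 6.28, 6.16, 6.41 and 6.22, against the 4 WT values at 9 weeks given above. All 4 R6/2 arrays were above all 4 WT arrays, which 3.54% of all genes showed in this direction and 1.69% in the other. The difference was 0.39 (SE 0.16, 95% interval 0.06 to 0.72, 1.31-fold), with an adjusted p = 0.422 by limma, so that it was not called. Without WT replicates 2 and 4 it was 0.20 (adjusted p = 1, limma), still without overlap, as were 9.07% of all genes in this direction with 2 WT arrays. In R6/1 eyes Hmox1 was 4.31, 4.50 and 4.92, within and below the WT range at 6 months, and the difference was -0.23 (SE 0.17, adjusted p = 1, limma). It was -0.17 without the array labelled WT replicate 4 and -0.07 with that array counted as R6/1. The line difference was -0.61 (SE 0.23, 95% interval -1.10 to -0.12), with an adjusted p = 1 by limma, and no gene of the whole table was called in this comparison.

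The genes most like Hmox1 over the 15 arrays were Crygc (r = 0.97), Birc7 (r = 0.97) and Crygd (r = 0.96). Crygc and Crygd encode gamma crystallins of lens fibre cells, a family of near-identical genes whose probes may share signal, and Birc7 encodes an inhibitor of apoptosis. Crygc was 5.43, 5.77, 5.95 and 6.65 in WT arrays at 6 months, against 7.72, 7.14, 7.85 and 7.12 in WT arrays at 9 weeks. In R6/2 arrays it was 7.79, 7.74, 7.94 and 7.63, and in R6/1 arrays it was 5.68, 5.75 and 6.04. The arrays fall into the ages, so the value over all 15 mainly restates the age difference; within ages the r of Hmox1 and Crygc was 0.66 over 7 arrays at 6 months and 0.88 over 8 arrays at 9 weeks. The lens fibre list as a whole (10 of 10 genes measured) had a mean of 5.67 to 6.38 in WT arrays at 6 months and 7.24 to 7.88 in WT arrays at 9 weeks, with 6 genes called lower and 0 higher. It was 7.83 to 7.93 in R6/2 arrays and 5.49 to 5.89 in R6/1 arrays, with 0 genes called in either HD comparison. Its r with Hmox1 was 0.01 at 6 months and 0.85 at 9 weeks, where WT replicates 2 and 4 were lowest in both. For the deviations from the group means it was 0.07. The 9-week value was not particular to this list. The r of Hmox1 with the ciliary and iris epithelium list was -0.26 at 6 months and 0.86 at 9 weeks. With the gland list it was -0.24 and -0.79. The part of lens RNA in the Hmox1 values was not tested. Hmox2, the constitutive haem oxygenase, and the other genes of haem and iron handling are counted with the pathway lists.

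Slc7a11, the cystine transporter subunit that supplies glutathione synthesis, followed the arrays with gland genes. It was 3.74, 3.70, 3.65 and 4.58 in R6/2 arrays, against 4.46, 6.69, 3.65 and 7.36 in WT arrays at 9 weeks. WT replicates 2 and 4 were above every other array of the study, and WT replicate 3 was at the level of the R6/2 arrays. The difference was -1.62 (SE 0.57, 95% interval -2.82 to -0.43, 0.324-fold), with an adjusted p = 0.386 by limma. Without WT replicates 2 and 4 it was -0.14 (95% interval -0.76 to 0.48, adjusted p = 1, limma). In R6/1 eyes Slc7a11 was 3.58, 3.98 and 3.82, against 3.88, 4.17, 3.27 and 3.89 in WT arrays at 6 months, a difference of -0.01 (SE 0.61). Excluding the array labelled WT replicate 4 gave 0.02 and counting it as R6/1 gave 0.05. Between ages the WT arrays differed by -1.74 (SE 0.57, adjusted p = 0.0968, called lower by limma), and by -0.25 (adjusted p = 0.771, not called) without WT 9 weeks replicates 2 and 4. A second probe set of Slc7a11, which was not used, had a mean of 1.82 and ran from 1.37 to 4.18 over the arrays.

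The gland list (10 of 10 genes measured, none called in R6/2) had means of 3.85, 3.70, 4.28 and 4.82 in R6/2 arrays, against 4.76, 6.36, 3.85 and 6.61 in WT arrays at 9 weeks. At 6 months it was 3.53 to 3.78 in R6/1 arrays and 3.68 to 3.92 in WT arrays. The r of Slc7a11 with this list was 0.98 over the 8 arrays at 9 weeks and 0.13 over the 7 arrays at 6 months, and over all 15 arrays it was 0.96, or 0.70 without WT 9 weeks replicates 2 and 4. Its most alike genes were Pank1, Acsl5 and Sptlc1 (r = 0.99 each), which encode enzymes of coenzyme A, acyl coenzyme A and sphingolipid synthesis. Pank1 was 3.75, 3.69, 3.83 and 4.37 in R6/2 arrays, against 4.20, 6.49, 3.66 and 7.10 in WT arrays at 9 weeks. How much of the Slc7a11 signal came from gland tissue was not tested.

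**Figure D3:**
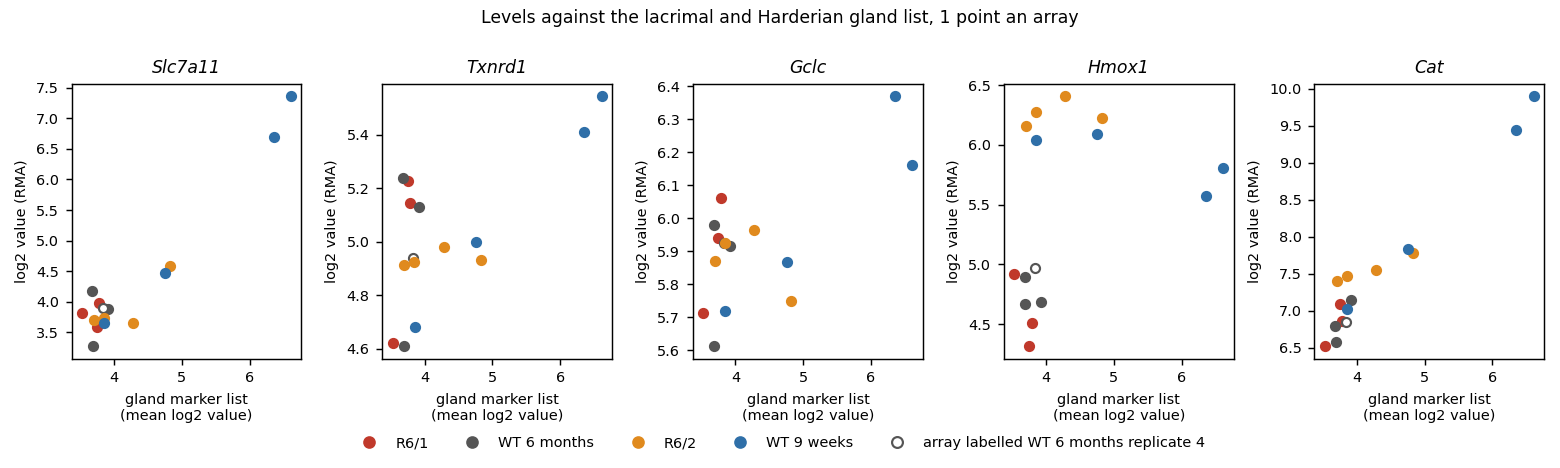
Levels (log2, RMA) of Slc7a11, Txnrd1, Gclc, Hmox1 and catalase (Cat) against the mean of the lacrimal and Harderian gland list, with 1 point an array. The pair of points at list values of 6.36 and 6.61 are WT 9 weeks replicates 2 and 4, which are highest in Slc7a11, Txnrd1, Gclc and Cat.

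Glutamate cysteine ligase, the first enzyme of glutathione synthesis, is made of a catalytic subunit (Gclc) and a modifier subunit (Gclm), and thioredoxin reductase (Txnrd1) keeps thioredoxin reduced. Matches to the antioxidant response element were searched as TGACNNNGC on either strand in the same 300-base windows. They were present in 12.4% of the 32851 windows and in 4 of the 10 windows of these genes, those of Gclm, Txnrd1, Srxn1 and Mt2. Windows were matched for 8 of the 10 genes, with 3 for Txnrd1, and Hmox1 and Gclc had no entry. The matches in the windows of the enzymes are shown with 10 bases on either side. All are printed from the plus strand of GRCm38.p6, and capitals mark the match, which reads on the reverse strand in each.
Gclm, chr3:122245413-122245441: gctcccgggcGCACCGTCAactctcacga
Txnrd1, chr10:82859104-82859132: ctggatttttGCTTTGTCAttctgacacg
Srxn1, chr2:152105542-152105570: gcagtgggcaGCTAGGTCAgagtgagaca
The Srxn1 match lies after the annotated start, and the windows of Mt2, Gclm and Srxn1 held matches to both kinds of element. These too are matches of letters, and binding was not measured.

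Gclc was 5.93, 5.87, 5.96 and 5.75 in R6/2 arrays, against 5.87, 6.37, 5.72 and 6.16 in WT arrays at 9 weeks. Txnrd1 was 4.92, 4.91, 4.98 and 4.93 in R6/2 arrays, against 5.0, 5.41, 4.68 and 5.54 in WT arrays. In both genes the 4 R6/2 arrays lay inside the WT range, whose top was again WT replicates 2 and 4. The differences were -0.15 for Gclc (SE 0.14) and -0.22 for Txnrd1 (SE 0.19, adjusted p = 0.763, limma), and without these arrays 0.08 and 0.10. Txnrd1 had an SD of 0.0302 in R6/2 arrays and 0.393 in WT arrays (n = 4 each). Its r with the gland list was 0.94 at 9 weeks and 0.54 at 6 months, and that of Gclc was 0.79 and 0.52. Over all 15 arrays the r was 0.67 for Txnrd1 and 0.67 for Gclc. Without WT 9 weeks replicates 2 and 4 it was 0.12 for Txnrd1 and -0.03 for Gclc. Gclm was 5.76, 6.09, 6.21 and 5.89 in R6/2 arrays, against 6.07, 6.22, 6.02 and 6.26 in WT arrays, a difference of -0.16 (SE 0.17, adjusted p = 0.814, limma).

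At 6 months the same enzymes were close between R6/1 and WT. Gclc was 5.94, 6.06 and 5.71 in R6/1 arrays, against 5.92, 5.98, 5.61 and 5.93 in WT arrays (difference 0.05, SE 0.15). Gclm was 6.06, 6.29 and 5.61, against 6.35, 6.22, 5.81 and 6.25 (difference -0.17, SE 0.18). Txnrd1 was 5.23, 5.15 and 4.62, against 5.13, 5.24, 4.61 and 4.94 (difference 0.02, SE 0.21, 95% interval -0.42 to 0.46). The lowest array of each group was replicate 3 in all of these genes, the arrays with the narrow spread. Without the array labelled WT replicate 4 the differences were 0.07, -0.14 and 0.01, and with it counted as R6/1 they were 0.07, -0.07 and -0.01. Within groups Gclc and Txnrd1 varied together, with an r of 0.88 for the deviations from the group means over 15 arrays, 0.91 over the 7 arrays at 6 months and 0.89 over the 8 at 9 weeks. The genes most like Txnrd1 were Dennd4c (r = 0.96), Srpr (r = 0.95) and Nfe2l1 (r = 0.95), the last a relative of NRF2 that serves proteasome genes. For Gclc they were Ubxn8 (r = 0.92), Ecd (r = 0.91) and Dcaf11 (r = 0.91), and for Gclm they were Dicer1 (r = 0.91), Ulk2 (r = 0.90) and Rps28 (r = 0.90).

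Sulfiredoxin (Srxn1), which repairs over-oxidised peroxiredoxins, varied little. It was 4.24, 4.63 and 4.66 in R6/1 arrays, against 4.60, 4.38, 4.36 and 4.55 in WT arrays at 6 months (difference 0.04, SE 0.12, or 0.06 without the array labelled WT replicate 4 and 0.07 with it counted as R6/1). It was 4.69, 4.72, 4.81 and 4.64 in R6/2 arrays, against 4.69, 4.78, 4.67 and 4.97 in WT arrays at 9 weeks (difference -0.07, SE 0.11). All 4 WT arrays at 6 months were below all 4 WT arrays at 9 weeks, and this difference of -0.31 (SE 0.11, adjusted p = 0.177, limma over all genes) was called in the fit over all genes only, where 5.53% of genes were called lower and 4.04% higher. It was -0.21 without WT 9 weeks replicates 2 and 4 (adjusted p = 0.671), and without the array labelled WT 6 months replicate 4 it was -0.33 (adjusted p = 0.238), not called in either. Srxn1 was most like H2-T24 (r = 0.89), Hmgb1 (r = 0.89) and Mon1a (r = 0.86), of which H2-T24 was low, at 2.55 to 3.17.

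Nqo1, the quinone reductase that is often read as a sign of NRF2 activity, was 4.82, 4.57 and 4.42 in R6/1 arrays, against 4.83, 5.04, 4.44 and 4.83 in WT arrays at 6 months. The groups overlapped, and the difference was -0.18 (SE 0.15, 95% interval -0.51 to 0.14, adjusted p = 1, limma), or -0.17 without the array labelled WT replicate 4 and -0.11 with it counted as R6/1. In R6/2 arrays Nqo1 was 4.73, 4.51, 4.45 and 4.43, against 4.40, 4.39, 4.49 and 4.40 in WT arrays at 9 weeks. This was a difference of 0.11 (SE 0.14, adjusted p = 0.859, limma). The WT arrays at 6 months were 0.36 above those at 9 weeks (SE 0.14, adjusted p = 0.149), which limma called higher although WT 6 months replicate 3 lay among the 9-week arrays; the call was lost without the array labelled WT replicate 4 (adjusted p = 0.245) and without WT 9 weeks replicates 2 and 4 (adjusted p = 0.485). Nqo1 varied with several cell type lists. Its r with the 4 measured genes of the ciliary and iris epithelium list (6 listed) was 0.78 at 6 months and 0.52 at 9 weeks. It was 0.70 and 0.51 with the cornea and conjunctiva list, and 0.87 and 0.37 with the Mueller glia list. With the lens fibre list it was 0.76 and 0.47, and with the stromal fibroblast list 0.57 and 0.53. With the gland list the sign turned between ages (0.47 and -0.61). The ciliary and iris list was 5.32 to 5.66 in R6/1 and 5.25 to 5.79 in WT arrays at 6 months. At 9 weeks it was 5.31 to 5.39 in R6/2 and 5.01 to 5.37 in WT arrays. The part of these cell types in the Nqo1 values was not tested. The most alike genes were Ppp2r3a (r = 0.89), Akap9 (r = 0.88) and Gbe1 (r = 0.88).

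Gpx3 was 4.19, 3.80 and 4.06 in R6/1 arrays, against 4.43, 4.12, 4.14 and 3.79 in WT arrays at 6 months. The array labelled WT replicate 4 was the lowest of all 15, so the difference of -0.10 (SE 0.20, adjusted p = 1, limma) was -0.21 without it and -0.27 (95% interval -0.67 to 0.13, adjusted p = 1) with it counted as R6/1. In R6/2 arrays Gpx3 was 4.22, 4.82, 4.62 and 4.48, against 4.59, 4.25, 4.97 and 4.82 in WT arrays at 9 weeks (difference -0.12, SE 0.18, adjusted p = 0.872, limma). Between ages the WT arrays differed by -0.54 (SE 0.18, 0.689-fold, adjusted p = 0.111), called lower at 6 months by limma. That call was lost without the array labelled WT 6 months replicate 4 (-0.43, adjusted p = 0.24) and without WT 9 weeks replicates 2 and 4 (-0.66, adjusted p = 0.218), although the sign held in both. Gpx3 was most like Fbxo41 (r = 0.82), Krt86 (r = 0.82) and Tlnrd1 (r = 0.82), the weakest likeness found for any of the 10 genes. All of these were low, at 2.35 to 2.87 for Fbxo41, 1.78 to 2.45 for Krt86 and 2.18 to 3.16 for Tlnrd1. The array medians were 2.78 to 2.95.

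**Figure D4:**
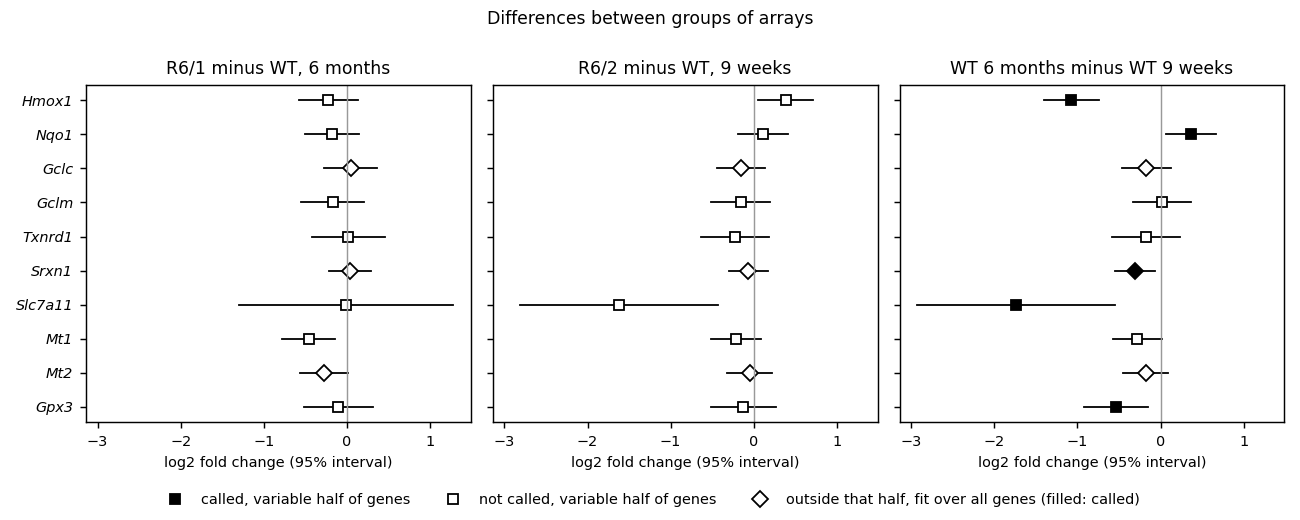
Log2 fold changes of the 10 genes with 95% intervals in R6/1 minus WT at 6 months, R6/2 minus WT at 9 weeks and WT at 6 months minus WT at 9 weeks, on the same scale. Filled symbols were called, and diamonds are the 3 genes outside the variable selection, read from the fit over all genes. Called values appear only between ages, where Hmox1 is at -1.07, Slc7a11 at -1.74, Gpx3 at -0.54, Nqo1 at 0.36 and, in the fit over all genes, Srxn1 at -0.31.

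Between WT ages, 3 of the 7 tested genes were called lower at 6 months (Hmox1, Slc7a11 and Gpx3) and 1 was called higher (Nqo1), beside the 11.5% and 7.74% of all tested genes. Of these only Hmox1 was called both without the array labelled WT replicate 4 and without WT 9 weeks replicates 2 and 4, and Slc7a11 was called in the first but not the second. Hmox1 and Srxn1 were the genes of the 10 whose WT arrays did not overlap between ages, as 3.64% of all genes did in this direction and 2.32% in the other. In the line difference 0 of the 7 genes were called, as were 0 of all tested genes. The unadjusted p was under 0.05 for Hmox1 alone, and 302 of 11090 genes passed that level. Slc7a11 followed with 1.62 (SE 0.83, adjusted p = 1, limma), or 0.13 without WT 9 weeks replicates 2 and 4.

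The rest of the antioxidant and metal pathways was described by lists. No gene of these lists was called in R6/1 or R6/2, nor in the difference between them. None was called in R6/1 without the array labelled WT 6 months replicate 4 or with it counted as R6/1 either, where the list medians ran from -0.16 to 0.11 and from -0.23 to 0.0888, and none in R6/2 without WT 9 weeks replicates 2 and 4, where they ran from -0.23 to 0.12. Of the regulators of NRF2 all 9 were measured and 3 tested, with a median log2 fold change of 0.09 in R6/1 and 0.00 in R6/2. Nfe2l2 itself was 6.04, 5.86 and 5.32 in R6/1 arrays, against 5.83, 6.13, 5.15 and 5.91 in WT arrays at 6 months. It was 6.01, 6.20, 5.93 and 5.85 in R6/2 arrays, against 6.05, 6.01, 5.91 and 5.79 in WT arrays at 9 weeks. Keap1, its inhibitor, was 4.07 to 4.22 in R6/1 arrays and 3.98 to 4.44 in WT arrays at 6 months, and 4.30 to 4.52 in R6/2 arrays and 4.14 to 4.63 in WT arrays at 9 weeks. For these transcripts the groups overlapped at both ages.

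The further NRF2 targets (20 of 24 measured, 11 tested) had a median of -0.01 in R6/1 and -0.11 in R6/2. Of these, malic enzyme (Me1), a source of NADPH, was 6.99, 6.32, 7.12 and 7.55 in R6/2 arrays, against 6.89, 9.13, 6.78 and 9.66 in WT arrays at 9 weeks (difference -1.12, adjusted p = 0.46, limma). Catalase (Cat), which belongs to the list of superoxide and peroxide enzymes and splits hydrogen peroxide in peroxisomes, was 7.47, 7.40, 7.55 and 7.78 in R6/2 arrays, against 7.83, 9.44, 7.02 and 9.89 in WT arrays (difference -0.996, adjusted p = 0.451, limma). WT replicates 2 and 4 were the highest in both, as for Slc7a11. Alas1, the first enzyme of haem synthesis and a gene of the haem and iron list, was 5.29, 5.45, 5.20 and 5.95 in R6/2 arrays, against 5.76, 7.36, 5.10 and 7.79 in WT arrays (difference -1.03, adjusted p = 0.422, limma).

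The superoxide and peroxide enzymes (19 of 21 measured) had medians of 0.09 in R6/1 and -0.08 in R6/2, the zinc genes (9 of 11) 0.04 and 0.01, the selenoprotein supply genes (12 of 12) 0.00 and -0.05, and the haem and iron genes (11 of 12) -0.01 and 0.00. The amino acid response genes under ATF4 (11 of 11), a response that also induces Slc7a11, had medians of 0.04 and -0.02. The glucocorticoid-responsive genes (10 of 10) had medians of -0.06 and -0.20. Among the genes with the lowest p, the glucocorticoid target Klf9 differed by -0.37 in R6/1 (adjusted p = 1, limma), and Selenom, a selenoprotein of the endoplasmic reticulum, by 0.45 in R6/2 (adjusted p = 0.373, limma). None of these medians was tested.

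Between WT ages, calls were found in each list but that of the regulators. The NRF2 targets had 2 genes called lower and 1 higher of 11 tested (Slc48a1 and Abcc1; Gsta4), and the superoxide and peroxide enzymes 3 lower and 1 higher of 10, beside the 11.5% and 7.74% of all tested genes. Cat was called lower at 6 months (difference -1.70, adjusted p = 0.0454, limma), and Gpx8, a peroxidase of the endoplasmic reticulum, was higher by 0.58 (adjusted p = 0.0398). Prdx3 and Gpx4 were the other genes called lower. Selenow, a small selenoprotein of muscle, was called lower (difference -0.80, adjusted p = 0.0205), as was Sepsecs, which makes selenocysteine on its transfer RNA. Of the haem and iron genes, Alas1 (-1.41, adjusted p = 0.0753) and Hamp were lower, and Cp, the ferroxidase ceruloplasmin, was higher by 0.69 (adjusted p = 0.0373). The zinc transporters Slc30a4 and Slc39a10 were called higher, Atf4 and Shmt2 lower, and the glucocorticoid targets Per1 and Lcn2 lower. The values of Cat and Alas1 in WT 9 weeks replicates 2 and 4, given above, were the highest of all arrays. Without these arrays only Abcc1, Selenow and Per1 (lower) and Gpx8 (higher) of the list genes were called, and 1.52% of all tested genes were called lower and 0.803% higher. Without the array labelled WT 6 months replicate 4, where 8.74% were called lower and 3.99% higher, Gsta4, Prdx3, Gpx4, Slc30a4, Slc39a10, Atf4 and Lcn2 lost their calls. With it counted as R6/1 the same genes did, except Slc30a4.

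**Figure D5:**
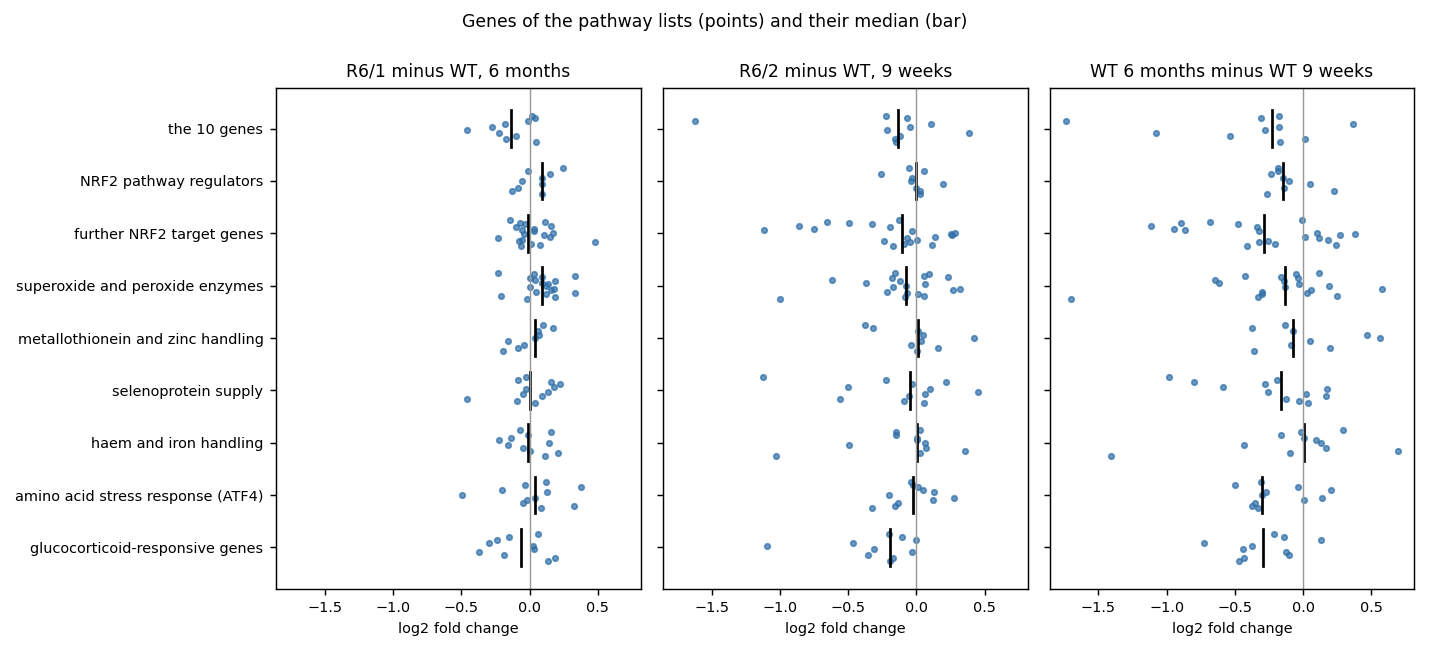
Log2 fold changes of every measured gene of the pathway lists (points) and the list medians (bars) in R6/1 minus WT at 6 months, R6/2 minus WT at 9 weeks and WT at 6 months minus WT at 9 weeks. In both HD comparisons the medians lie between -0.20 and 0.09, and the points near -1 in R6/2 include Me1, Cat and Alas1.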

How the data were processed

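The authors background-corrected, normalised and summarised the arrays by RMA (affy), and deposited log2 values per probe set in 1 table with no variance filter. They stated a GeneChip IVT Express Kit in the labels and a WT Plus kit in the methods. Probe intensities were not used here.

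Of 41345 probe sets, 23521 carried 1 symbol in the platform's annotation and represented 22180 genes. The members and all gene lists were chosen with earlier results of these data known. limma 3.58.1 (R 4.3.3; lmFit, eBayes) was fitted to 4 group means over 15 arrays, on the 50% of genes with the higher interquartile range (11090), with calls at p under 0.05 and a false discovery rate under 0.20 (Benjamini-Hochberg). For members outside that selection the fit over all genes was used. The text names all members, up to 4 genes of each pathway list by p and any called, and the 3 genes most alike to each member by Pearson's r. The fit was tested on simulated data. Groups are those of the labels.

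Deviations from group means of arrays with the same replicate number correlated at 6 months (r = 0.41, 0.34 and 0.75), but the labels name no pairing. R6/1 replicate 2 was nearly as close to WT replicates 1 and 4 (r = 0.31 and 0.29). R6/1 replicate 1 had an r of 0.25 and 0.22 with WT replicates 2 and 4. The highest value joined the replicate 3 arrays, those with the narrow spread. Pairing by number was thus not shown, and the main fit used none. For equal numbers at 9 weeks, r had no common sign (0.11, -0.29, -0.22 and 0.26). The alternatives covered filter, threshold, arrays fitted, probe set choice, normalisation, array weights, spread, replicate block and left-out arrays. The list counts and shares under other arrays were added after seeing the data. Promoter windows are from RefSeq (GRCm38.p6). The number of arrays limits the precision.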

Additional observations from a re-analysis of the deposited data

Results flagged for a closer look

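A sample far from the rest of its group was looked for in 30 combinations of gene and group with 4 arrays, by the ratio of its gap to the range; chance alone flags about 1 in 20 such groups. Slc7a11 in R6/2 replicate 4 was 4.58, above the 3.65 to 3.74 of the other R6/2 arrays. The same array was the highest of the R6/2 arrays in the gland list (4.82, against 3.70 to 4.28 in the other R6/2 arrays) and in Elovl3 (7.14, against 1.86 to 3.04). Nqo1 in WT 9 weeks replicate 3 was 4.49, above the 4.39 to 4.40 of the other WT arrays at 9 weeks, a distance smaller than the spread of Nqo1 in any other group.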

How the results depend on the processing

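Over all alternatives, 759 fold changes of single genes kept their direction and their side of the threshold, 46 changed sign, 22 lost a call and 7 gained one. No antioxidant or metallothionein gene was called in R6/1 under any setting. In R6/2 none was called as reported, while 2 genes were called lower (Slc7a11, Txnrd1) and 1 higher (Hmox1) with array weights, and 1 lower (Slc7a11) and 1 higher (Hmox1) with a replicate block, at adjusted p of 0.169 and 0.2. Arrays of the same number did not deviate together at 9 weeks, so there the block pairs samples that share only a number. At 6 months, where pairing by number was not shown either, the block changed no call of the 10 genes. No paired analysis was possible between ages because the arrays of the 2 ages share only numbers. Leaving out single arrays gave 0 to 1 gene called lower in R6/2 (Slc7a11, without WT 9 weeks replicate 1 or 3). Of all tested genes, 598 were called lower without WT 9 weeks replicate 3.

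Between WT ages, 1 gene (Hmox1) was called lower and 0 higher at an adjusted p under 0.05, in a fit of only the groups compared and without WT 9 weeks replicates 2 and 4. With the array labelled WT 6 months replicate 4 counted as R6/1, 2 were called lower and 0 higher. Leaving out single arrays gave 1 to 3 called lower, with 1 without WT 9 weeks replicate 4, and 0 to 1 called higher, Nqo1 losing its call in 6 of 15 cases. Of all tested genes, 399 to 1526 were then called lower and 282 to 1798 higher.

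Some signs turned. Slc7a11 in R6/1 was 0.0430 with quantile normalisation, 0.0226 with scaled arrays, 0.0208 with the replicate block, 0.0440 with the array spread as a covariate and 0.0451 with the doubtful array counted as R6/1, where Txnrd1 was -0.00954. In R6/2 Gpx3 was 0.0630 with array weights and Txnrd1 0.0961 without WT replicates 2 and 4, against -0.22 with them. In the line difference Gclm was 0.0882 with array weights, 0.0193 with the replicate block, 0.00457 with the array spread and 0.0850 with the array counted as R6/1. Gpx3 was there -0.26 with array weights, -0.0893 with the block and -0.15 with the array counted as R6/1, and Txnrd1 was -0.0773 without WT 9 weeks replicates 2 and 4, against 0.24 with them. Between ages Gclm was -0.0167 with the array counted as R6/1, and Txnrd1 0.14 without WT 9 weeks replicates 2 and 4, against -0.18 with them. Without single arrays, R6/1 values ran from -0.19 to 0.11 for Slc7a11, -0.21 to 0.00737 for Gpx3, -0.10 to 0.21 for Txnrd1 and -0.32 to 0.0179 for Gclm (-0.17 with all arrays). The line difference ran from -0.16 to 0.18 for Gclm and -0.0893 to 0.16 for Gpx3, and Gclm between ages from -0.0507 to 0.13. The array labelled WT 6 months replicate 4 has no R6/1 array of its number. For Slc7a11 in R6/1, and for Gclm and Gpx3 in the line difference, the block gave the same values as leaving that array out. These are thus not separate sign changes. The causes of the turned signs were not tested.

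Over the whole table, genes called in R6/1 numbered 2 lower and 4 higher as reported, 61 and 21 with array weights, 57 and 19 with the replicate block and 43 and 10 with the array counted as R6/1. In R6/2 they numbered 11 and 8 as reported, 1107 and 987 with array weights and 339 and 230 with the block. Between ages they numbered 1270 and 858, and 169 and 89 without WT 9 weeks replicates 2 and 4.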
